A study of Mus musculus with 9 samples.

Results

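The 10 protein kinases described here, *Map3k1*, *Map3k2*, *Map3k3*, *Map3k4*, *Map3k5*, *Map3k7*, *Map3k9*, *Map3k10*, *Map3k11* and *Map3k12*, are MAP kinase kinase kinases (MAP3K) that can act upstream of the cJun N-terminal kinase (JNK). They were taken by gene symbol from the 33568 symbols in the RNA-seq tables, and all 10 were found. In control mouse lung endothelial cells (MLEC) the mRNA of *Map3k3* was the most abundant, with 50.3 ± 6.21 FPKM (SD, n = 6), followed by *Map3k7* and *Map3k12*. FPKM counts the sequenced fragments of a gene after scaling to the length of its transcript and to the number of reads mapped in the library. In JNK-deficient MLEC *Map3k1* and *Map3k4* were lower in all 3 libraries than in all 6 control libraries, as were 11.5% of all genes tested. The mean was lower than in the controls for 7 members and higher for 3 (*Map3k5*, *Map3k7* and *Map3k9*). Over all genes tested the median log2 difference was -0.08. None of the 7 members that could be tested across all genes passed, where 4.80% of all genes did against the mean of the controls.

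The study compared primary MLEC from adult C57BL/6J mice of 10 to 12 weeks in 3 groups with 3 libraries each. ECtrl cells were Cdh5-Cre+ Jnk1+/+ Jnk2+/+ Jnk3-/-, so they carried the Cre transgene and intact *Mapk8* and *Mapk9*, the genes of JNK1 and JNK2. EfCtrl cells were Cdh5-Cre- Jnk1LoxP/LoxP Jnk2LoxP/LoxP Jnk3-/-, with the LoxP alleles and no Cre. E3KO cells were Cdh5-Cre+ Jnk1LoxP/LoxP Jnk2LoxP/LoxP Jnk3-/-. All 3 groups lacked Jnk3, so the controls were themselves deficient in 1 JNK isoform. Cdh5-Cre is driven by the promoter of the endothelial cadherin gene. Each library came from its own isolation, in which the lungs of several mice were pooled, so the spread between libraries is a spread between pools of cultured cells.

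MAP3K are the entry tier of MAP kinase cascades: they phosphorylate MAP kinase kinases, which activate the MAP kinases. JNK is activated by the kinases MKK4 and MKK7 and phosphorylates transcription factors such as cJun, a subunit of AP-1. Different MAP3K answer to different upstream signals, and many also feed the p38, ERK or NF-kB pathways. In the vascular endothelium MEKK3 and TAK1 are known to be needed for vessel development, and the mixed-lineage kinases (MLK) are activated by the small GTPases Rac1 and Cdc42. The activity of these kinases is controlled largely by phosphorylation and binding partners, which mRNA levels do not show.

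Some facts of the libraries bear on every value. In the library labelled E3KO replicate 1 the FPKM summed to 9841812, against 656089 to 908401 in the other 8 libraries, and the 10 most abundant symbols held 96.4% of the sum, against 40.9% to 56.8%. Over symbols that average under 5000 FPKM the sums of all 9 libraries lay between 388537 and 433172. *Mapk9* lay between 42.7 and 50.9 FPKM in the controls and between 20.7 and 35.1 FPKM in E3KO cells. *Mapk8* lay between 14.0 and 17.9 FPKM in the controls and between 4.65 and 20.7 FPKM in E3KO cells, and the library labelled E3KO replicate 1 held the highest value, above every control. Each value covers a whole locus, so exons that recombination leaves in place also count, but their part in these values was not tested. The cause of the high *Mapk8* value in the library labelled E3KO replicate 1 was not tested either. The summed FPKM of 9 endothelial markers lay between 2950 and 3620 in the controls and between 3550 and 3940 in E3KO cells. Its members differed in direction: *Emcn* had 973 ± 105 FPKM in the controls and 1500 ± 54.7 FPKM in E3KO (adjusted p = 0.026, limma) and *Cldn5* had 217 ± 42.5 and 114 ± 15.6 FPKM (adjusted p = 0.0322, limma), while the other 7 did not pass. The summed FPKM of 8 leukocyte markers lay between 72.2 and 152 in ECtrl, between 157 and 252 in EfCtrl and between 197 and 313 in E3KO cells, and none of the 8 was at 0 in all libraries. The highest of them on average was *Lyz2*, with 107 ± 53.4 FPKM in the controls and 189 ± 48.6 FPKM in E3KO. *Ptprc*, *Itgam*, *Itgb2*, *Cd68* and *Cd14* also had higher means in E3KO. *Emr1* had 0.722 ± 0.408 and 0.716 ± 0.578 FPKM, and *Csf1r* had 1.36 ± 0.678 and 1.4 ± 0.66 FPKM. Of the 8, 4 were tested by limma and 0 passed, against 4.80% of all genes. The summed FPKM of 10 smooth muscle and fibroblast markers lay between 12.0 and 78.2 in the controls and between 10.1 and 22.9 in E3KO cells, with *Myh11*, *Pdgfrb*, *Pdgfra* and *Lum* under 1 FPKM in every library. That of 7 epithelial markers lay between 2.55 and 6.05 in the controls and between 2.81 and 51.3 in E3KO cells, where the highest sum came from *Scgb1a1* at 46.2 FPKM in the library labelled E3KO replicate 1. The part of these cells in the values below was not tested, and in bulk samples fewer cells of a type and less RNA per cell cannot be told apart.

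The first question was which MAP3K are expressed in control MLEC and in what order. FPKM is scaled to transcript length, so levels of different genes can be set side by side. *Map3k3* (MEKK3; chromosome 11, 106084613 to 106155446 on mm10) was listed at 46.4, 44.4 and 58.4 FPKM in ECtrl replicates 1 to 3 and at 58.0, 46.5 and 48.3 FPKM in EfCtrl replicates 1 to 3. *Map3k7* (TAK1, the kinase of the TNF, interleukin-1 and TGF-beta receptors; chromosome 4, 31964097 to 32023467) was listed at 29.3, 33.6 and 44.2 FPKM in ECtrl and at 35.6, 34.7 and 29.7 FPKM in EfCtrl. *Map3k3* was above *Map3k7* in each of the 6 control libraries, by 0.55 ± 0.16 on the log2 scale (SD, n = 6). Flipping the signs of the 6 differences, as an exact two-sided permutation, gave p = 0.0312, which is the lowest value possible here, and 0.0468 after adjustment over the 9 neighbouring pairs. The order was set by the same 6 libraries, so a p at this lowest value only restates the shared direction.

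*Map3k12* (DLK, best known from the injury response of neurons) came next with 18.5 ± 2.57 FPKM (SD, n = 6), at 21.7, 17.9 and 17.1 FPKM in ECtrl and 14.4, 20.03 and 19.7 FPKM in EfCtrl. It was below *Map3k7* in 6 of 6 libraries (log2 difference 0.90 ± 0.38). The neuronal markers *Rbfox3*, *Snap25* and *Syt1* together did not exceed 0.238 FPKM in any of the 9 libraries. The files list *Map3k12* over a locus on chromosome 15, 102455526 to 102517064, that is shared with *Pcbp2*, an abundant RNA-binding protein gene on the opposite strand. In the GENCODE annotation 1573 of the 8989 exon bases of *Map3k12* (17.5%) also lie in exons of *Pcbp2*. Whether the counting used strand is not given in the sources used here, and *Pcbp2* had 107 to 148 FPKM in the 9 libraries, so the level and the rank of *Map3k12* are uncertain, and the part of *Pcbp2* in its value was not tested.

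*Map3k1* (MEKK1, which has a kinase domain and a ubiquitin ligase domain; chromosome 13, 111746428 to 111808993) had 10.2 ± 2.07 FPKM (SD, n = 6) in the controls. It was below *Map3k12* (log2 difference 0.87 ± 0.24) and above *Map3k2* (1.05 ± 0.37) in 6 of 6 libraries each. *Map3k2* (MEKK2, the closest relative of MEKK3; chromosome 18, 32163089 to 32236751) had 4.82 ± 0.559 FPKM. *Map3k4* (MEKK4, which is activated by GADD45 proteins; chromosome 17, 12227621 to 12318660) had 4.70 ± 0.793 FPKM. These neighbours did not differ beyond their spread: *Map3k2* was the higher in 3 of 6 libraries, by 0.04 ± 0.34 on the log2 scale (exact sign-flip permutation test, p = 0.812). *Map3k4* is listed in 2 rows at the same locus, and its value for a library lies close to the mean of the rows, not their sum. Counted as the sum of both rows, taken as 2 times the listed value, it had 9.39 ± 1.59 FPKM in the controls. It was then above *Map3k2* in 6 of 6 libraries, by 0.94 ± 0.35 on the log2 scale, and did not differ from *Map3k1* beyond the spread (0.11 ± 0.34, exact sign-flip permutation p = 0.531).

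The MLK group was low. *Map3k11* (MLK3; chromosome 19, 5689131 to 5702862) had 3.62 ± 0.730 FPKM and *Map3k10* (MLK2; chromosome 7, 27656375 to 27674598) had 3.32 ± 0.762 FPKM (SD, n = 6 each). *Map3k4* was above *Map3k11* in 5 of 6 libraries (0.38 ± 0.32; exact p = 0.0938), and *Map3k11* above *Map3k10* in 4 of 6 (0.13 ± 0.51; exact p = 0.562), so neither step passed the test with the listed value of *Map3k4*. With *Map3k4* as the sum, *Map3k2* stood next to *Map3k11* and was above it in 6 of 6 libraries (0.42 ± 0.38). *Map3k9* (MLK1; chromosome 12, 81714950 to 81781170) had 0.953 ± 0.170 FPKM, and *Map3k5* (ASK1, which is held inactive by thioredoxin and released by oxidants; chromosome 10, 19934472 to 20142753) had 0.531 ± 0.184 FPKM. *Map3k10* was above *Map3k9* (1.68 ± 0.26) and *Map3k9* above *Map3k5* (0.77 ± 0.47) in 6 of 6 libraries. Of the 9 neighbouring pairs, 6 had the same direction in every control library, each with an adjusted p of 0.0468 by the exact sign-flip permutation test. With *Map3k4* as the sum of its rows there were 7 of 9, each with an adjusted p of 0.0401 by the same exact test. Because the order was set by the same 6 libraries, these adjusted p-values restate the shared direction and add no support for the order.

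The breadth of these levels can be read against all 10605 genes tested. These had a group mean of at least 2 FPKM, so the many symbols under that level are not counted in the shares. The control mean of *Map3k3* lay above 84.7% of them, that of *Map3k7* above 77.1%, that of *Map3k12* above 60.7% and that of *Map3k1* above 42.7%. *Map3k2* lay above 22.3%, and *Map3k4* above 21.7% with its listed value and above 40.4% as the sum of its rows. Lower still, *Map3k11* and *Map3k10* lay above 15.7% and 13.7%. With *Map3k4* as the sum of its rows, the 10 members summed to 136 ± 9.76 FPKM in the controls, of which *Map3k3*, *Map3k7* and *Map3k12* held 75.9% ± 1.99 and the MLK members *Map3k9*, *Map3k10* and *Map3k11* held 5.78% ± 0.418 (SD, n = 6).

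**Figure D1:**
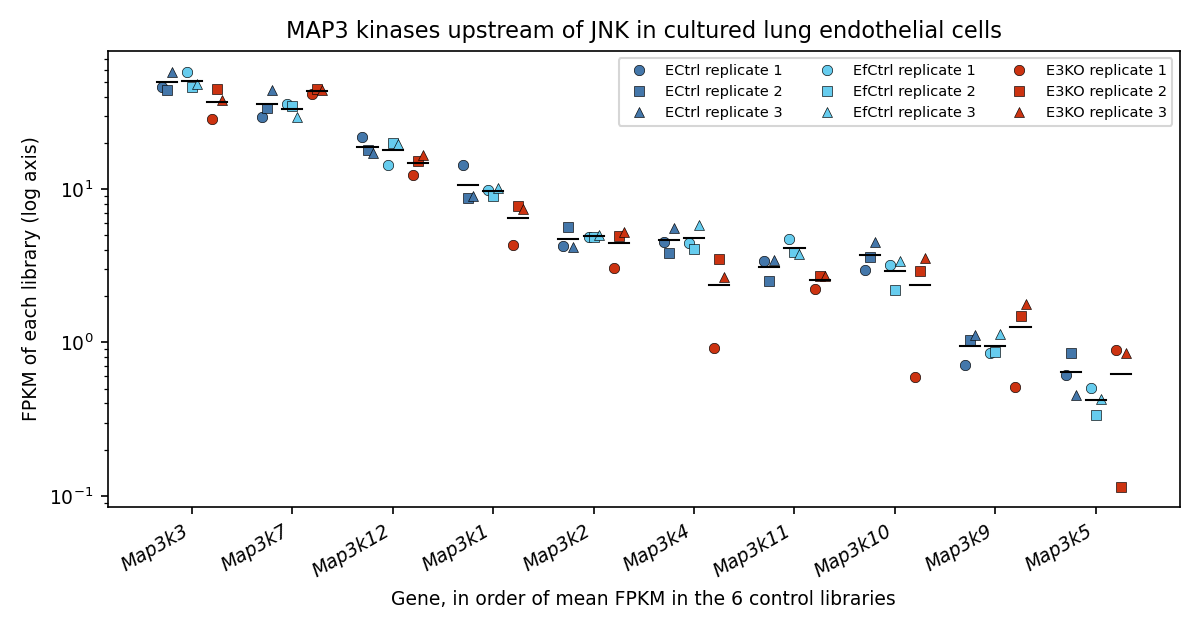
FPKM (log axis) of the 10 MAP3 kinases in each of the 9 libraries, in order of their mean in the 6 controls, with the colour giving the group, the symbol shape the replicate and the line the group mean. *Map3k3* and *Map3k7* lie at the top between 28.7 and 58.4 FPKM, and red circles mark the library labelled E3KO replicate 1.

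The sequences before the start sites are shown for the pair of members whose E3KO libraries were all below the controls, *Map3k1* and *Map3k4*. They are also shown for *Map3k10* and *Map3k11*, the pair of MLK genes that mice used by the study lack together. They are the RefSeq promoter windows of GRCm38.p6 (the mm10 assembly), 5′ to 3′ on the strand of the gene. Each covers up to 250 bases before the RefSeq start. The stretches of *Map3k4* and *Map3k10* were cut where the gene annotated by GENCODE begins. That of *Map3k11* is also cut short, and all of it lies inside the annotated gene, which GENCODE starts at 5688742. The stretches are chr13:111808994-111809243 (minus strand) for *Map3k1*, chr17:12318797-12318910 (minus) for *Map3k4*, chr7:27674599-27674831 (minus) for *Map3k10* and chr19:5688881-5689036 (plus) for *Map3k11*. Capitals mark a match, on either strand, to GGGCGG (the GC box of Sp factors), TGANTCA (the AP-1 element) or CCGGAAG (an ETS site).
Map3k1: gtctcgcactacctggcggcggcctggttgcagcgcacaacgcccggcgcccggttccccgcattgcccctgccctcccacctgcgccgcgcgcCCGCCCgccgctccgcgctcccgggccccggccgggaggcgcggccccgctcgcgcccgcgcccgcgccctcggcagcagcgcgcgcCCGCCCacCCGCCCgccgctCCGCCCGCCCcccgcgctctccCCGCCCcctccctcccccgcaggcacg
Map3k4: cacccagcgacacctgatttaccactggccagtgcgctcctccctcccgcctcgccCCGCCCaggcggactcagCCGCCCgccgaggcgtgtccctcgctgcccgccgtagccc
Map3k10: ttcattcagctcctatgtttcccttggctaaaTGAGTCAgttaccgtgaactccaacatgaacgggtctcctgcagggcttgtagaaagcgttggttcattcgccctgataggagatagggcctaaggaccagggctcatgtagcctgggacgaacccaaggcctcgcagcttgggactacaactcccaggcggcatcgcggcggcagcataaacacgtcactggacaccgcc
Map3k11: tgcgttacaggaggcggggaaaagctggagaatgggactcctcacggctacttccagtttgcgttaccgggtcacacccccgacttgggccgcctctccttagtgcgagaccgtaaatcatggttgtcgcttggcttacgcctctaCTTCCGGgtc

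The windows of *Map3k1* and *Map3k4* held 6 and 2 GC boxes, and neither held an AP-1 or ETS letter match. In *Map3k1* a pair of the 6 matches overlaps and is printed as 1 longer run of capitals. The GC content of the 250 bases was 85.2% for *Map3k1*, above 99.9% of the 32851 windows in the table, and 73.6% for *Map3k4*, above 94.7%. The windows of *Map3k10* and *Map3k11* had 57.2% and 54.0%, near the median of 52.4%. *Map3k10* held the only AP-1 element among the members, starting 218 bases before its RefSeq start. *Map3k11* held the only ETS match, 104 bases before its RefSeq start and inside the gene as GENCODE annotates it. TGANTCA occurs in 7.81% of all windows, which run from 250 bases before the start to 50 after it, CCGGAAG in 8.86% and GGGCGG in 35.7%. TGACGTCA, the element of CREB and ATF factors, occurs in 1.79% of windows and in none of those of the members. Windows were found for 9 of the 10 members, and there is none for *Map3k2*. A match is a run of letters and was not tested for binding.

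The second question was whether any of these genes differs in JNK-deficient MLEC. *Map3k1* was listed at 14.2, 8.72 and 8.95 FPKM in ECtrl, at 9.85, 9.07 and 10.1 FPKM in EfCtrl and at 4.30, 7.71 and 7.37 FPKM in E3KO. Every E3KO library was below every control, with the lowest value in the library labelled E3KO replicate 1. The mean was 10.2 ± 2.07 FPKM in the controls and 6.46 ± 1.88 FPKM in E3KO, or 63.6% of the controls, and an exact two-sided permutation test of the 3 E3KO against the 6 control libraries gave p = 0.0119, the smallest that 84 splits allow. Across all genes, limma gave a difference of -0.60 in log2(FPKM + 1) (SE 0.20, 95% interval -1.06 to -0.13), with a Benjamini-Hochberg adjusted p of 0.132, so *Map3k1* did not pass. Against ECtrl alone the difference was -0.64 (adjusted p = 0.185, limma) and against EfCtrl alone -0.55 (adjusted p = 0.273, limma). Without the library labelled E3KO replicate 1 both remaining E3KO values were still below every control, and the difference in mean log2(FPKM + 0.1) went from -0.67 to -0.40 (exact permutation p = 0.107).

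*Map3k4* showed the lowest E3KO mean relative to the controls. It was listed at 4.50, 3.85 and 5.55 FPKM in ECtrl, at 4.45, 4.05 and 5.78 FPKM in EfCtrl and at 0.922, 3.52 and 2.66 FPKM in E3KO. Again every E3KO library was below every control, and the library labelled E3KO replicate 1 was far below the other pair. The mean was 4.70 ± 0.793 FPKM in the controls and 2.37 ± 1.32 FPKM in E3KO (50.4%), with an exact permutation p of 0.0119. Because the symbol has 2 rows it is outside the fit across genes. In a fit that kept such symbols, added after seeing the data, limma gave -0.84 (SE 0.26, 95% interval -1.43 to -0.24, adjusted p = 0.107). In the authors' group values both rows were lower in E3KO, at 4.34 against 8.17 and 8.43 FPKM for 1 row and 1.10 against 1.84 and 1.80 FPKM for the other, in the order E3KO, ECtrl, EfCtrl. Without the library labelled E3KO replicate 1 the difference was -0.59 in mean log2(FPKM + 0.1) in place of -1.13, with an exact permutation p of 0.0357, the smallest that 2 against 6 libraries allow.

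All E3KO libraries lay below all controls in 2 of the 10 members and above all controls in 0. Among the 10605 genes tested this happened in 11.5% downward and 5.18% upward. The exact permutation p was under 0.05 for 3 of the 10 members (*Map3k1*, *Map3k3* and *Map3k4*), against 25.7% of all genes tested. Over 10 members these counts show nothing particular to the MAP3K.

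The estimates of the most abundant pair had opposite signs, and neither passed the test across all genes. *Map3k3* was listed at 28.7, 45.0 and 37.8 FPKM in E3KO replicates 1 to 3, against 44.4 to 58.4 FPKM in the controls. The E3KO libraries labelled replicates 1 and 3 were below every control and replicate 2 was within the controls. The means were 50.3 ± 6.21 and 37.2 ± 8.18 FPKM (exact permutation p = 0.0238), and limma gave -0.44 (SE 0.16, 95% interval -0.81 to -0.07, adjusted p = 0.152). Without the library labelled E3KO replicate 1 the exact permutation p was 0.107 and without E3KO replicate 3 it was 0.0714. *Map3k7* was listed at 41.9, 45.0 and 44.2 FPKM in E3KO, against 29.3 to 44.2 FPKM in the controls. A single control, ECtrl replicate 3, reached the E3KO range. Its means were 34.5 ± 5.41 and 43.7 ± 1.62 FPKM (exact permutation p = 0.0595), and limma gave 0.35 (SE 0.14, 95% interval 0.03 to 0.66, adjusted p = 0.175). Without ECtrl replicate 3 the exact permutation p was 0.0179. Removing that library leaves no overlap, so this p is the lowest possible for the libraries left and adds no separate support.

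Within a library the log2 ratio of *Map3k3* to *Map3k7* lay between 0.40 and 0.70 in the controls, with *Map3k3* higher in 6 of 6, and between -0.54 and 0.001 in E3KO, with *Map3k7* higher in 2 of 3. This ratio was set up after the values had been seen and is given with no test. *Map3k7* held 25.3% ± 2.65 of the summed FPKM of the members in the controls (22.1% to 28.8%) and 37.6% ± 5.14 in E3KO (34.0% to 43.5%). *Map3k3* held 36.9% ± 2.35 and 31.3% ± 2.37. The summed FPKM was 136 ± 9.76 in the controls (n = 6) and 118 ± 19.1 in E3KO (n = 3), and their ranges, 126 to 153 and 96.3 to 132, overlap.

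**Figure D2:**
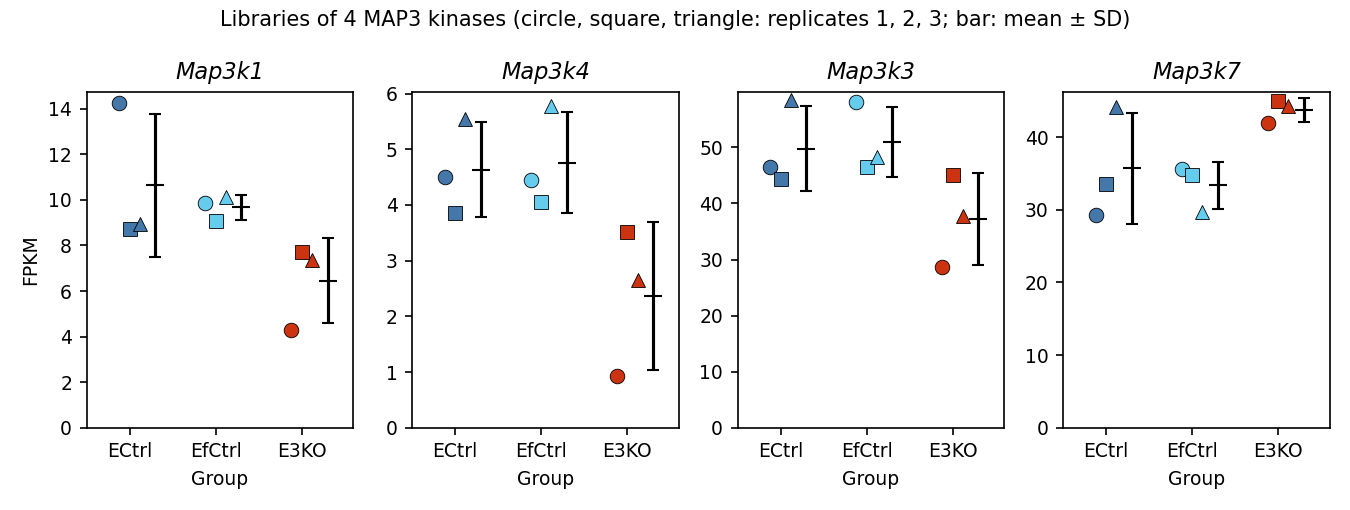
FPKM of *Map3k1*, *Map3k4*, *Map3k3* and *Map3k7* in each library (circle, square and triangle for replicates 1, 2 and 3), with the mean ± SD of each group of 3 beside the points. All E3KO points of *Map3k1* and *Map3k4* lie below the control points, those of *Map3k3* reach into the controls at 45.0 FPKM, and those of *Map3k7* lie between 41.9 and 45.0 FPKM with 1 ECtrl library at 44.2 FPKM among them.

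The partners of these kinases are given from lists of their known relations. TAK1 acts in a complex with TAB proteins. *Tab2* lay at 43.8 ± 3.44 FPKM in the controls and 46.0 ± 6.17 FPKM in E3KO, and *Tab3* at 6.22 ± 1.29 and 6.35 ± 0.106 FPKM. *Tab1* was lower than 2 FPKM on average in both. Neither *Tab2* nor *Tab3* passed limma, with log2 differences of 0.06 and 0.05. Of the adaptors and MAP4 kinases, which act above MAP3K, 10 were tested and 0 passed limma, against 4.80% of all genes. An unadjusted p under 0.05 was reached by 4 (*Traf2*, *Map4k2*, *Map4k4* and *Map4k5*), against 23.8% of all genes. *Map4k4* had 166 ± 8.06 FPKM in the controls and 196 ± 17.2 FPKM in E3KO (limma 0.24, adjusted p = 0.178), and *Map4k5* had 71.6 ± 7.74 and 88.9 ± 11.4 FPKM (limma 0.31, adjusted p = 0.199). *Map4k2* had 66.7 ± 11.2 and 44.5 ± 4.52 FPKM (limma -0.56, adjusted p = 0.0767). All E3KO libraries lay below all controls for *Map4k2*, *Traf2* and *Traf6*, as for 11.5% of all genes. *Traf2*, an adaptor of TNF receptors that binds MAP3K, had 4.99 ± 0.934 and 3.50 ± 0.365 FPKM (limma -0.40, adjusted p = 0.151).

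The MLK members were compared next. *Map3k10* was listed at 2.98, 3.60 and 4.53 FPKM in ECtrl, at 3.21, 2.20 and 3.38 FPKM in EfCtrl and at 0.598, 2.94 and 3.53 FPKM in E3KO. The library labelled E3KO replicate 1 alone was below the controls, and the other E3KO libraries lay within them. The limma difference was -0.48 (SE 0.32, 95% interval -1.20 to 0.25, adjusted p = 0.382), and without the library labelled E3KO replicate 1 it was -0.01. *Map3k11* was listed at 3.38, 2.51 and 3.43 FPKM in ECtrl, at 4.74, 3.86 and 3.77 FPKM in EfCtrl and at 2.22, 2.72 and 2.71 FPKM in E3KO. E3KO lay below every EfCtrl library but overlapped ECtrl, where replicate 2 was lower than E3KO replicates 2 and 3. Limma gave -0.37 against the mean of the controls (SE 0.12, 95% interval -0.64 to -0.10, adjusted p = 0.117), -0.21 against ECtrl (adjusted p = 0.433) and -0.53 against EfCtrl (adjusted p = 0.112). Between the controls *Map3k11* was 0.32 higher in EfCtrl (unadjusted p = 0.0449, adjusted p = 1.00, limma). *Map3k9* lay between 0.713 and 1.14 FPKM in the controls and at 0.511, 1.48 and 1.77 FPKM in E3KO (exact permutation p = 0.595).

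The study used mice that lack both *Map3k10* and *Map3k11*, so the balance of this pair was compared within each library. The log2 ratio of *Map3k10* to *Map3k11* was -0.18, 0.50 and 0.39 in ECtrl, -0.55, -0.78 and -0.15 in EfCtrl and -1.73, 0.11 and 0.37 in E3KO. ECtrl and EfCtrl lay on opposite sides of 0 apart from ECtrl replicate 1, and E3KO held the lowest value of the series beside a pair near ECtrl. The mean differed by -0.29 between E3KO and the controls (exact permutation p = 0.631), and by 0.37 in the other direction without the library labelled E3KO replicate 1 (p = 0.429, exact permutation test). *Map3k10* shares 612 of its 4142 exon bases (14.8%) with *Ttc9b* on the opposite strand and *Map3k11* shares 430 of 4393 (9.8%) with an antisense transcript, so reads from the opposite strand cannot be told apart here.

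**Figure D3:**
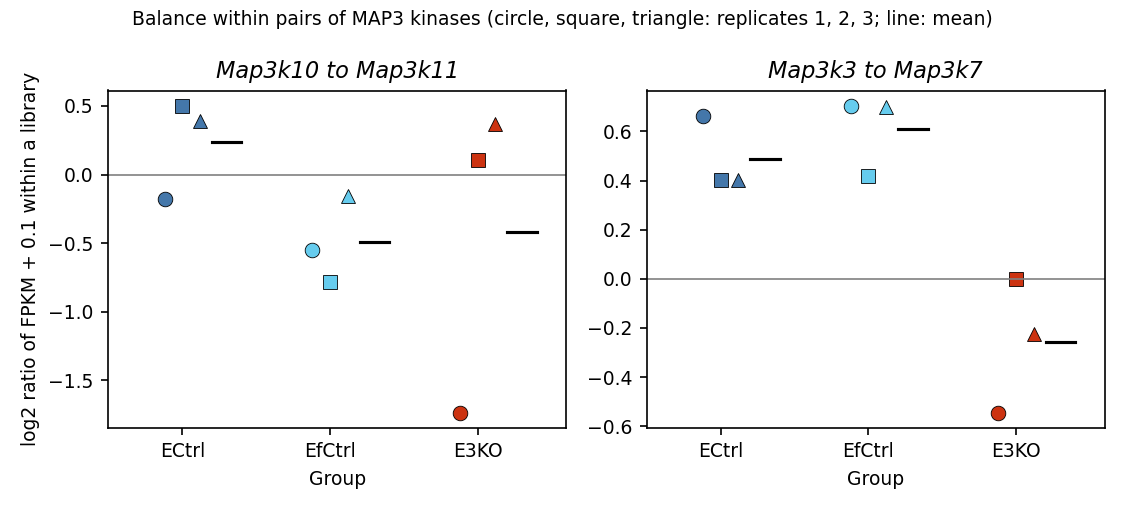
Log2 ratio of *Map3k10* to *Map3k11* (left) and of *Map3k3* to *Map3k7* (right) within each library, by group, with the mean as a line and replicates 1, 2 and 3 as circle, square and triangle. On the left the 3 groups overlap and the lowest point is the library labelled E3KO replicate 1 at -1.73. On the right the controls lie between 0.40 and 0.70 and E3KO between -0.54 and 0.001.

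*Map3k12* was listed at 12.3, 15.3 and 16.6 FPKM in E3KO, overlapping the lowest control at 14.4 FPKM (limma -0.31, SE 0.15, adjusted p = 0.252). *Map3k2* was listed at 4.23, 5.68 and 4.18 FPKM in ECtrl, at 4.88, 4.90 and 5.03 FPKM in EfCtrl and at 3.07, 4.91 and 5.26 FPKM in E3KO, so the library labelled E3KO replicate 1 alone was below the controls. Its limma difference was -0.12 (SE 0.16, 95% interval -0.48 to 0.24, adjusted p = 0.652), and without that library it was 0.07. *Map3k5* was listed at 0.615, 0.856 and 0.454 FPKM in ECtrl, at 0.501, 0.336 and 0.424 FPKM in EfCtrl and at 0.894, 0.115 and 0.853 FPKM in E3KO. The E3KO libraries held both the lowest value of *Map3k5* and the 1 above all controls (exact permutation p = 0.905). *Map3k5* and *Map3k9* were under 2 FPKM and stayed out of the fit across genes.

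Of the 10 members, 7 were tested by limma and 0 passed at an adjusted p under 0.05 against the mean of the controls, where 4.80% of all 10605 genes passed. At an unadjusted p under 0.05 there were 4 of 7 (*Map3k1*, *Map3k3*, *Map3k7* and *Map3k11*), against 23.8% of all genes. The estimate was lower for 6 members and higher for 1, with a median log2 difference of -0.37 against -0.08 over all genes. Against ECtrl alone 0 of 7 passed (2.25% of all genes) and 1 had an unadjusted p under 0.05 (20.1%). Against EfCtrl alone 0 of 7 passed (0.952% of all genes) and 4 had an unadjusted p under 0.05 (17.7%). Between EfCtrl and ECtrl limma called 0 of 7 members and 0% of all genes, and at an unadjusted p under 0.05 there was 1 of 7 (1.84% of all genes). The comparisons with each control share the E3KO libraries.

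**Figure D4:**
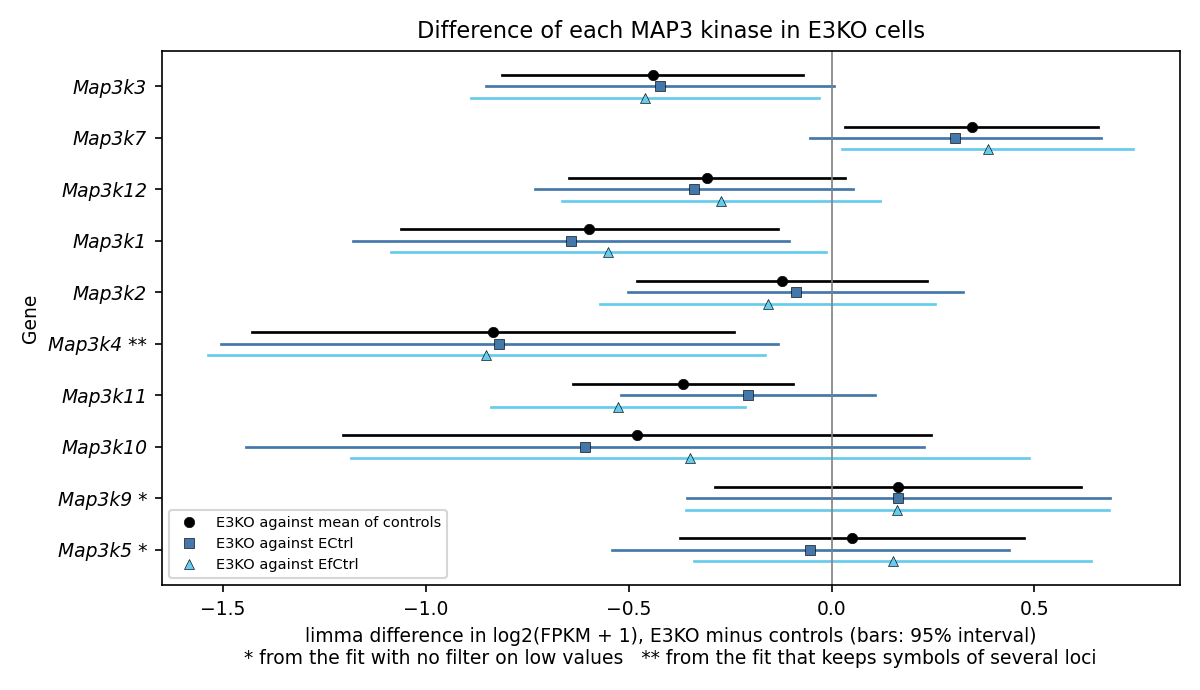
Difference in log2(FPKM + 1) between E3KO and the mean of the controls (circle), ECtrl (square) and EfCtrl (triangle) by limma, with 95% intervals, for each member in order of abundance. The estimates of *Map3k7* and *Map3k9* lie above 0 in all 3 comparisons and those of 7 members below it, with *Map3k5* on both sides, and the intervals do not allow for the number of genes tested. *Map3k5* and *Map3k9* come from the fit with no filter on low values and *Map3k4* from the fit that keeps symbols of 2 rows.

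The other components of these pathways were counted from lists of 53 genes, of which 49 are in the files and 40 were tested by limma. Of these 1 was called lower (*Mapk9*, the deleted JNK2 gene, adjusted p = 0.0359) and 0 higher, which is 2.50% against 4.80% of all genes, and the median difference was -0.03. Of the other MAP3K 12 of 14 are in the files, 8 were tested and 0 passed with the median at -0.05. The TAO kinases *Taok1*, *Taok2* and *Taok3* had control means between 16.0 and 20.6 FPKM. *Map2k4* (MKK4), which phosphorylates JNK for many of these kinases, had 36.5 ± 1.70 FPKM in the controls and 42.0 ± 5.42 FPKM in E3KO (limma 0.19, adjusted p = 0.292). The gene of MKK7, *Map2k7*, was not found by symbol, and neither were *Map3k19*, *Zak* and *Mapk8ip3*. *Map2k2* (MEK2), a kinase of the ERK pathway, had 8.28 ± 1.16 FPKM in the controls and 5.0 ± 1.23 FPKM in E3KO (limma -0.64, adjusted p = 0.0662). The GTPases of the MLK group were abundant, with *Rac1* at 399 ± 28.5 and *Cdc42* at 454 ± 32.5 FPKM in the controls and differences of -0.23 and -0.06 (adjusted p = 0.247 and 0.711, limma). All E3KO libraries lay below all controls for *Map2k2*, *Rac1* and *Mapk9*, besides *Map4k2*, *Traf2* and *Traf6* above, as for 11.5% of all genes. They lay above all controls for *Txn2* and *Map3k15*, as for 5.18% of all genes. *Map3k15* was under 1 FPKM in every library.

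Over the 9 libraries the genes whose log2 values were most like those of *Map3k10* were *Cnst* (Pearson r = 0.986), *Gm9949* (0.978) and *Sbk1* (0.966), and those most like *Map3k11* were *Rxra* (0.983), *Pcbp4* (0.977) and *Slc39a3* (0.970). These are the highest of 10605 correlations each and rest on the same 9 libraries, including the library labelled E3KO replicate 1.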

How the data were processed

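RNA-seq libraries of 9 MLEC isolations (3 each of ECtrl, EfCtrl and E3KO) were compared. The authors mapped the reads with TopHat2 (mm10 build), derived FPKM in Cufflinks and ran Cuffdiff between groups. The submitters' processing notes name Cufflinks 1.0.3. The deposited values used are the FPKM of each library, with the authors' group FPKM as an alternative. The deposited fold changes, p-values and q-values hold the authors' own comparisons and were not used.

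Groups came from the sample labels. Symbols of 1 locus with a group mean of at least 2 FPKM (10605) were tested with limma 3.58.1 (R 4.3.3) on log2(FPKM + 1) with Benjamini-Hochberg adjustment, a fit that was tested on simulated data. A pseudocount shrinks the differences of low genes. Single members were compared by exact permutation on log2(FPKM + 0.1), and neighbours in the order of abundance by exact sign flips. Loci and exons were compared with GENCODE M21 (GRCm38). Genes named are the members, the fixed pathway lists and the 3 genes most like *Map3k10* and *Map3k11*. The members and lists were chosen with earlier results of these data known. Depth per library is unknown: low FPKM values gave only broad peaks, so no counting interval was made. Python 3.11.15, numpy 2.4.6, pandas 2.3.3, scipy 1.17.1 and matplotlib 3.10.9 were used.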

Additional observations from a re-analysis of the deposited data

Results flagged for a closer look

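In the 6 control libraries *Map3k1* had 1 value apart from the others, ECtrl replicate 1 at 14.2 FPKM, while the other 5 lay between 8.72 and 10.1 FPKM. Its gap to the nearest library divided by the whole range was 0.746, above Dixon's 95% critical value for 6 libraries. The 10 members were each checked once, and chance alone marks about 1 in 20 groups. Without it the difference of *Map3k1* in E3KO was -0.57 in mean log2(FPKM + 0.1) (exact permutation p = 0.0179) and -0.49 by limma (adjusted p = 0.188).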

How the results depend on the processing

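None of the 7 members in the fit passed limma in any of the 4 comparisons under any alternative. *Map3k4* was fitted only with symbols of 2 rows kept and with libraries left out of that fit, where its lowest adjusted p (limma) against the mean of the controls was 0.0708. The calls over all genes moved with the settings. E3KO against the mean of the controls called 509 genes (163 higher, 346 lower), 202 with the replicate number as a block and 9 to 408 with a library left out. Centring each library on its median changed the split to 209 higher and 268 lower, and rescaling to 122 higher and 421 lower with the median of all genes at -0.12. Against ECtrl 239 became 95 with no filter, 1 with the block and 0 to 215 with a library left out, and against EfCtrl 101 became 17, 1 and 1 to 218. The lowest count in each came without E3KO replicate 3 and the 218 without ECtrl replicate 1. EfCtrl against ECtrl went from 0 to as many as 4 with a library left out. Same-numbered libraries came from separate mice. After the mean of its group was subtracted from every gene, same-numbered libraries correlated weakly (r from -0.04 to 0.123). On these remainders 6 of 18 checks found a library most like its own number. These values show no pairing by number, but the labels do not say whether same-numbered isolations were made together. The exact permutation test called 3 of 10 members (25.7% of all genes), 5 when FPKM was rescaled (27.6%) and 4 when libraries were centred (24.9%), a setting added after seeing the data. Over the settings with a library left out it called 2 to 4 members and 17.5% to 23.0% of all genes. With libraries left out singly, members called in addition were *Map3k7* (without ECtrl replicate 3), *Map3k11* (exact permutation p = 0.0179 without ECtrl replicate 2), *Map3k12* (0.0179 without EfCtrl replicate 1) and *Map3k9* (0.0357 without the library labelled E3KO replicate 1, where its difference was 0.72). In each the library left out was the only one that kept the groups from separating. The p is then the lowest possible and adds no separate support. The cause of these changes was not tested.

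Under centring *Map3k7* passed the exact permutation test (0.43, p = 0.0119) and *Map3k5* changed sign to 0.021. The other 9 members kept their sign in that test under centring, and all 10 under rescaling. With libraries left out, the ratio of *Map3k10* to *Map3k11* ran from -0.69 to 0.37, and small estimates crossed 0. *Map3k2* ran from -0.24 to 0.07 against the mean of the controls, from -0.21 to 0.11 (0.03 without ECtrl replicate 2) against ECtrl, from -0.28 to 0.035 against EfCtrl and from -0.29 to 0.084 in the permutation test. *Map3k10* against EfCtrl ran from -0.63 to 0.12. For EfCtrl against ECtrl *Map3k1* ran from -0.21 to 0.12, *Map3k3* from -0.058 to 0.16, *Map3k7* from -0.21 to 0.081 and *Map3k12* from -0.15 to 0.078, and *Map3k4* reached -0.07 and -0.091. In the permutation test *Map3k5* ran from -0.43 to 0.67 and reached 0.05 with a pseudocount of 1, and *Map3k9* ran from -0.087 to 0.72.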
